A study of Bos taurus with 129 samples.

Results

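Natural killer (NK) cells and cytotoxic T cells kill infected or altered cells by releasing granules that hold a pore-forming protein, perforin, and serine proteases, the granzymes. The 10 genes described here are GZMA, GZMB, GZMK, PRF1, NKG7, NCR1, KLRK1, KLRB1, CCL5 and XCL2. Their rows were chosen by symbol from a table of 32395 genes measured in whole blood of cattle, and all 10 passed the filter on low counts that left 18937 genes tested over 59 healthy and 70 diseased libraries. No threshold on a measured value was applied, but the list was selected on earlier results from the same libraries, namely the levels and calls of these genes by day, disease label and supplement. Their values and calls below are therefore a description and not independent evidence about them.

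GZMA, GZMB and GZMK encode granzymes, PRF1 encodes perforin, and NKG7 encodes a membrane protein of cytotoxic granules. NCR1 (NKp46) is an activating receptor and the usual marker of bovine NK cells, KLRK1 (NKG2D) is an activating receptor of NK cells and cytotoxic T cells, and KLRB1 (CD161) is a lectin-like receptor of NK cells and some T cells. CCL5 and XCL2 are chemokines that these lymphocytes release, CCL5 drawing T cells and monocytes and XCL2 acting on dendritic cells that carry its receptor. In blood, NK cells and effector T cells transcribe most of these genes, so their level in a whole-blood library depends both on how many such cells were present and on how much RNA each held. In bulk blood, fewer cells and less RNA per cell cannot be told apart.

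The blood came from 26 high-risk beef steers bled 5 times, at day 0 and again at days 13, 28, 45 and 60. Steers labelled healthy (12 animals, 59 libraries) were never diagnosed with or treated for bovine respiratory disease (BRD), and steers labelled BRD (14 animals, 70 libraries) were diagnosed and treated at some time in the study. The labels give no date of diagnosis, so a BRD steer at day 0 is one that was diagnosed later or at an unstated time, and a later BRD library may precede or follow its treatment. INR steers (4 healthy, 7 BRD) received Zn, Mn, Cu and Co as sulfates, AAC steers (4 healthy, 4 BRD) received the same minerals complexed with amino acids, and COMBO steers (4 healthy, 3 BRD) were fed like AAC steers and in addition drenched with trace minerals and vitamins, before shipment, at day 0 and again whenever they were treated for disease, so COMBO steers of the BRD label could receive more of the drench than healthy ones. No group went without supplement, and steers of every group were vaccinated and given doramectin on day 0, so a change from day 0 also spans arrival, vaccination and deworming. They were vaccinated a second time between days 13 and 28, which the changes at days 28, 45 and 60 also span. Healthy AAC steers have 3 libraries at day 13, because the authors removed that of animal 48. The COMBO steers of either label stood in a pen of their own (pen 5 healthy, pen 6 BRD), so supplement and first pen cannot be told apart, and pens 2, 3, 4 and 8 held steers of both labels.

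Total counts per library ranged from 31613545 to 61692136, with a median of 44268685, and the ranges of healthy (31613545 to 59809837) and BRD libraries (34928094 to 61692136) overlapped over most of their length. Levels are given as CPM, a gene's count relative to the library's total after scaling by the TMM method. They are not corrected for gene length and were not compared between genes. Over all libraries the median count was 3631 for PRF1, 2684 for GZMA, 2529 for CCL5, 2277 for NCR1, 1595 for NKG7, 712 for KLRK1 and 470 for GZMB, against 87 for XCL2, 72 for KLRB1 and 66 for GZMK, so counting error is larger for the last 3. Among the 10 genes, only KLRK1 had a library at or under 3 counts, the level treated as the floor. XCL2 has a near-identical neighbour, XCL1, whose level lay between 0 and 0.465 CPM, and how reads shared by the pair were divided is not given in the sources used here. The day 60 library of animal 40 (BRD, INR) was named by the study for low RNA integrity, and results that turn on it are marked as such.

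The granzymes were the members that rose in BRD cattle. GZMA, a granzyme of NK and cytotoxic T cells, in the 14 BRD steers ran from 18.7 to 123.5 CPM at day 0 (median 44.38), from 34.7 to 142 at day 13 (median 72.8), from 40.5 to 173 at day 28 (median 71.9), from 49.1 to 156 at day 45 (median 61.5) and from 30.8 to 113.6 at day 60 (median 66.1). The days overlapped, but 11, 10, 11 and 11 of the 14 steers stood above their own day 0 on days 13, 28, 45 and 60. In the 12 healthy steers GZMA ran from 26.0 to 148 CPM at day 0 (median 50.1) and its medians on the 4 later days were 56.02, 48.6, 66.9 and 56.4. Between 6 of 11 and 8 of 12 healthy steers stood above their own day 0 on those days, and none of the 4 healthy differences passed the test.

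**Figure D1:**
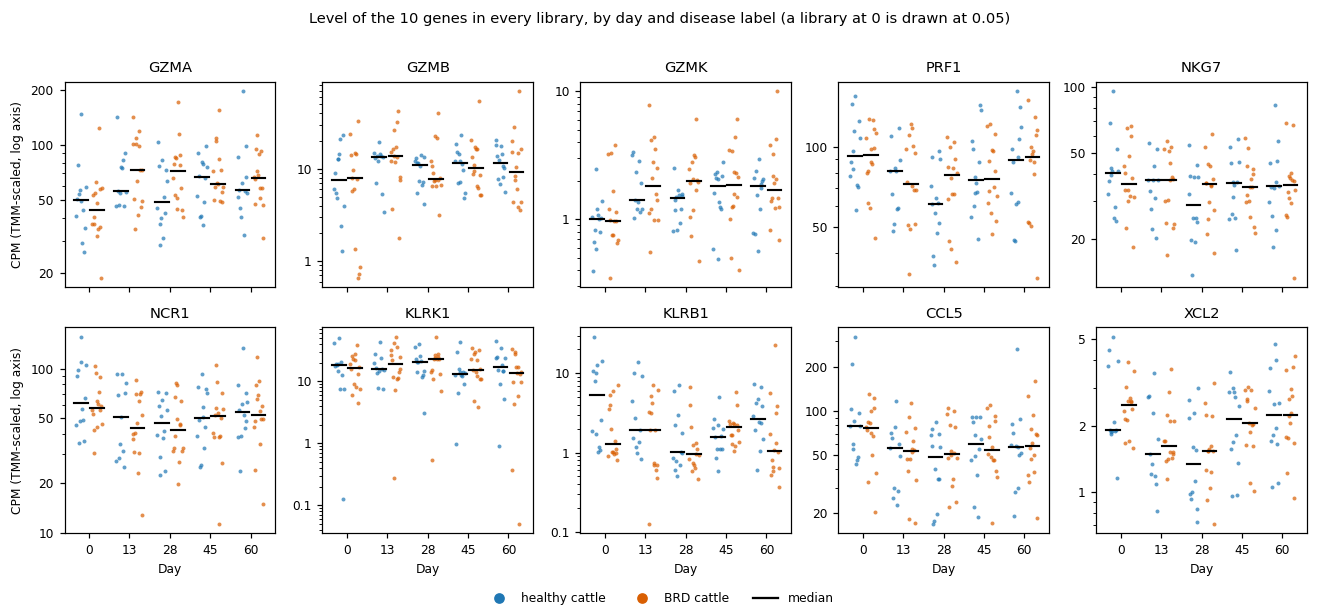
Level of each of the 10 genes in every library, in CPM on log axes that differ between panels, by day and disease label. Each point is a library (blue healthy, orange BRD), the bar is the median, and the KLRK1 library with a count of 0 is drawn at 0.05. The labels overlap on every day for each gene, and KLRK1 shows single libraries below 1 CPM among libraries near 10 to 50.

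Changes from day 0 were tested in a fit of all libraries with animal as a block (edgeR quasi-likelihood F-test, Benjamini-Hochberg adjustment over all 18937 genes, threshold FDR 0.10). In BRD cattle 17.43% of all genes passed at day 13 (9.08% higher, 8.35% lower), 20.05% at day 28 (9.78% higher, 10.27% lower), 22.51% at day 45 (11.77% higher, 10.74% lower) and 19.62% at day 60 (9.45% higher, 10.17% lower). Of the 10 cytotoxic genes, 5, 5, 2 and 2 passed on these days, which is above that background at days 13 and 28 and about at it at days 45 and 60. Since the genes were chosen with earlier calls on these libraries known, a share above background is not evidence about them. The 9 calls of a higher level all fell on granzymes, and the 5 of a lower level on PRF1, NCR1 and XCL2. GZMA rose at every later day, by 0.68 on the log2 scale at day 13 (SE 0.186, FDR 0.00761), 0.60 at day 28 (FDR 0.0170), 0.61 at day 45 (FDR 0.0148) and 0.49 at day 60 (FDR 0.0638).

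GZMB, the granzyme that activates caspases in the target cell, had BRD medians of 7.91 CPM at day 0 and 13.6, 7.79, 10.21 and 9.33 on the later days. It rose by 0.79 at day 13 (SE 0.270, FDR 0.0402) and by 0.68 at day 45 (FDR 0.0751), with 11 and 9 of 14 steers above their own day 0. GZMK, a granzyme of memory-type T cells, went from a BRD median of 0.976 CPM to 1.83, 2.00, 1.85 and 1.70. It rose by 0.72 at day 13 (SE 0.235, FDR 0.0289), 0.59 at day 28 (FDR 0.0760) and 0.70 at day 60 (FDR 0.0328), and at day 60 by 0.57 (FDR 0.0835) without the library of low RNA integrity. In healthy cattle GZMK rose at day 13, from a median of 1.01 to 1.41 CPM (log2 difference 0.89, SE 0.262, FDR 0.0241) and in 9 of 11 steers, and its later healthy differences of 0.42, 0.67 and 0.66 had FDRs of 0.279, 0.111 and 0.101. GZMB in healthy cattle had medians of 7.51, 13.5, 11.1, 11.6 and 11.6 CPM, and none of its 4 differences, 0.15 to 0.48, passed.

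Several of the BRD calls lay near the threshold. A fit of the BRD libraries alone gave 11 calls in place of 14. Leaving out a single steer gave 4 calls without animal 31, 6 without animal 23 or animal 40, and 8 to 12 without any other. Over the 14 fits with a steer left out, 10.72% to 16.41% of all genes passed at day 13 and 14.47% to 20.56% at day 28. At days 45 and 60 the shares were 15.7% to 21.63% and 13.46% to 22.28%, so the background moved as well. The GZMA call at day 13 was kept in all 14 of these fits, that at day 28 in all but the fit without animal 29 (FDR 0.141) and that at day 45 in all but the fit without animal 31 (FDR 0.122). The GZMB call at day 13 was lost in 9 of the 14 fits and that at day 45 in 12, and the GZMA call at day 60 was lost in 11. Their log2 differences kept their direction, at 0.69 to 0.94, 0.50 to 0.85 and 0.41 to 0.64, and the GZMB call at day 45, the GZMA call at day 60 and the GZMK call at day 28 were already lost in the fit of all BRD libraries alone. The GZMK calls at days 13, 28 and 60 were lost in 3, 9 and 4 of these fits, the NCR1 calls at days 13 and 28 described below in 9 and 4, and the PRF1 call at day 28 in 2.

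PRF1, NKG7 and NCR1 moved the other way. In healthy cattle PRF1 ran from 58.1 to 156 CPM at day 0 (median 92.5) and from 36.1 to 96.2 at day 28 (median 61.3), and 11 of 12 steers stood below their own day 0. The fitted fall was 0.42 at day 13 (log2 difference -0.42, SE 0.134, FDR 0.0411) and was larger at day 28 (log2 difference -0.67, SE 0.131, FDR 9.62e-05). By day 60 the healthy median was 89.7 CPM and the difference from day 0 was -0.19 (FDR 0.405). NKG7 in healthy cattle ran from 24.3 to 96.1 CPM at day 0 (median 40.4) and from 13.7 to 54.3 at day 28 (median 28.7), again lower in 11 of 12 steers (log2 difference -0.51, SE 0.138, FDR 0.00647), and it passed on no other day. NCR1 in healthy cattle had medians of 61.6 CPM at day 0, 51 at day 13 and 46.6 at day 28, was lower than at day 0 in 9 of 11 and 11 of 12 steers, and fell at both days (log2 differences -0.48, FDR 0.0697, and -0.61, FDR 0.00724).

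In BRD cattle PRF1 and NCR1 also fell. PRF1 had medians of 93 CPM at day 0 and 78.3 at day 28 (12 of 14 steers lower, log2 difference -0.31, SE 0.12, FDR 0.0634), and NCR1 went from 57.4 to 43.7 at day 13 and 42.1 at day 28 (11 of 14 steers lower on each day, log2 differences -0.47 and -0.49, FDR 0.0336 and 0.0197). NKG7 in BRD cattle had medians of 36.02, 37.6, 36.1, 34.8 and 35.4 CPM and no difference from day 0 beyond 0.15, with a 95% interval at day 28 of -0.40 to 0.10. Whether the fall of these genes differed between the labels is tested further on.

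The chemokines fell as well. CCL5 in healthy cattle ran from 43.6 to 322 CPM at day 0 (median 78.63), from 22.9 to 116.9 at day 13 (median 56.1) and from 16.98 to 84.5 at day 28 (median 48.5), with medians of 59.8 at day 45 and 57.3 at day 60. It was lower than the animal's own day 0 in 11 of 11, 12 of 12, 11 of 12 and 10 of 12 steers. It was the only one of the 10 genes that passed at all 4 later days in healthy cattle, with log2 differences of -0.87 (SE 0.195, FDR 0.00174), -1.002 (SE 0.191, FDR 6.33e-05), -0.62 (FDR 0.0301) and -0.56 (FDR 0.0496). In BRD cattle CCL5 went from a median of 76.1 CPM to 53.05, 50.7, 53.8 and 58.1 and was lower in 12, 10, 11 and 9 of 14 steers, but none of these differences passed (log2 differences -0.42 to -0.16, FDR 0.102 to 0.611).

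XCL2 was lower at days 13 and 28 under both labels. Healthy libraries ran from 1.15 to 5.14 CPM at day 0 (median 1.92), from 0.813 to 3.49 at day 13 (median 1.48) and from 0.727 to 2.99 at day 28 (median 1.34), and 10 of 11 and 12 of 12 steers were lower than at day 0 (log2 differences -0.53, FDR 0.0248, and -0.78, FDR 0.000121). BRD libraries had medians of 2.49, 1.62 and 1.54 CPM on these days, with 11 and 12 of 14 steers lower (log2 differences -0.41, FDR 0.0415, and -0.64, FDR 0.000580). At days 45 and 60 the healthy medians were 2.14 and 2.24 CPM, with 9 and 10 of 12 steers still below their own day 0, and the BRD medians were 2.06 and 2.26 CPM, with 10 and 8 of 14 below it. Neither label passed on these days. The call in BRD cattle at day 28 was kept with each of the 14 steers left out, and that at day 13 was lost in 8 of the 14 fits.

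The lectin-like receptors varied widely within animals. KLRB1 in healthy cattle ran from 1.002 to 29.03 CPM at day 0 (median 5.31), from 0.512 to 7.08 at day 28 (median 1.002) and from 0.591 to 5.02 at day 45 (median 1.58). It was lower than at day 0 in 11 and 9 of 12 steers, with log2 differences of -1.79 (SE 0.522, FDR 0.0121) and -1.82 (SE 0.521, FDR 0.0195). In BRD cattle KLRB1 ran from 0.814 to 7.21 CPM at day 0 with a median of 1.27, and the later medians of 1.91, 0.946, 2.10 and 1.04 gave no difference that passed. KLRK1 had healthy medians of 18.3, 15.8, 20.7, 13.4 and 17 CPM and BRD medians of 16.6, 19, 23.1, 15.5 and 13.5, and none of its 8 differences from day 0 passed (FDR 0.589 to 0.959).

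**Figure D2:**
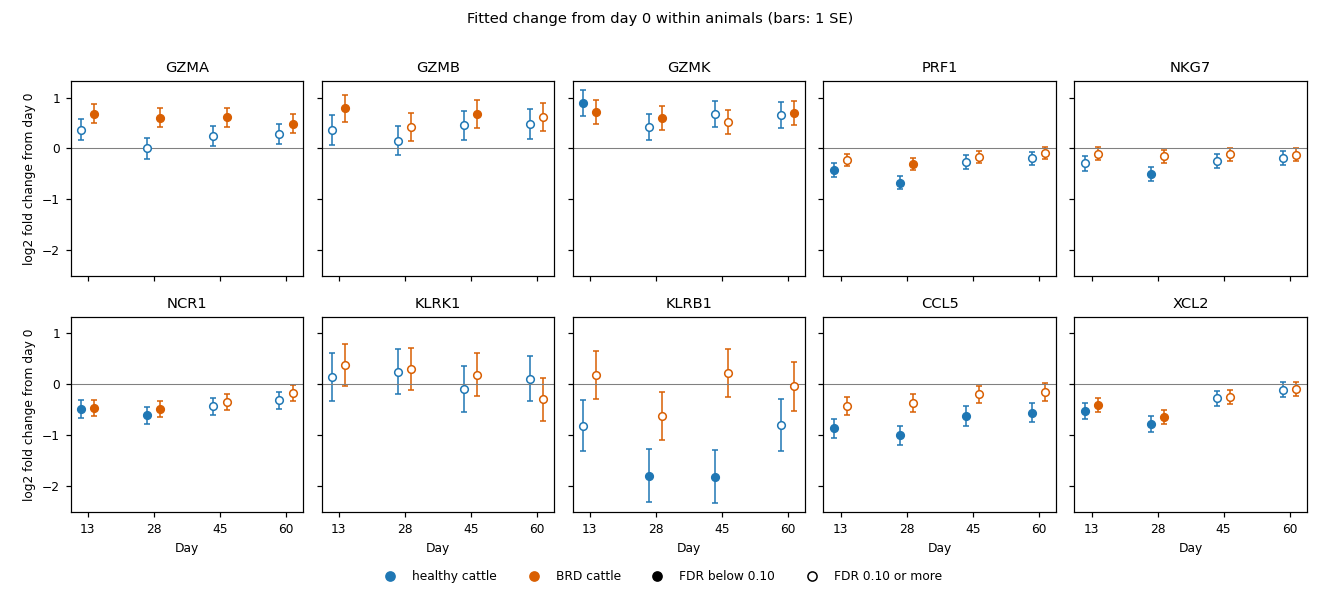
Log2 difference from day 0 of the 10 genes at days 13, 28, 45 and 60 in healthy (blue) and BRD cattle (orange), from the fit with animal as a block. Bars are 1 SE and filled points passed FDR 0.10, so that the granzymes lie above 0 and PRF1, NCR1, CCL5 and XCL2 below it, with the lowest healthy values at day 28.

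Over all 10 genes, healthy cattle had 5 calls at day 13 (1 higher, 4 lower), 6 at day 28 (all lower), 2 at day 45 (both lower) and 1 at day 60 (lower). Of all genes tested in healthy cattle, 10.95%, 20.98%, 8.55% and 11.64% passed on these days, of which 6.11%, 10.76%, 4.36% and 5.83% passed as higher and 4.84%, 10.22%, 4.19% and 5.81% as lower. The member shares at days 13, 28 and 45 were higher than that background, and 1 of 10 genes at day 60 lay at it. The 10 genes were chosen with earlier calls on these libraries known, so these shares only describe the list. All 4 later days share the day 0 libraries, so a high or low day 0 enters each of them. In a fit of the healthy libraries alone, 13 of the 14 calls were kept with each of the 12 steers left out in turn. The PRF1 call at day 13 was lost without animal 7 or animal 10. Over these 12 fits, 8.39% to 22.75% of all genes passed at day 13 and 21.8% to 28.92% at day 28. At days 45 and 60 the shares were 8.01% to 13.84% and 11.98% to 20.01%.

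The difference between the labels in the change from day 0 was tested in the same fit. None of the 10 genes passed on any of the 4 days, and neither did any of the 18937 genes (0% of genes on each day), although 619, 863, 801 and 596 genes had an unadjusted p below 0.05 on days 13, 28, 45 and 60. DESeq2 called none of the 10 genes either. Of the 40 gene and day combinations, 4 had an unadjusted p below 0.05, and in each the BRD difference was the higher. They were CCL5 at day 28 (log2 difference 0.64, SE 0.257, edgeR FDR 0.951), GZMA at day 28 (0.60, SE 0.273, FDR 0.951), PRF1 at day 28 (0.36, SE 0.177, FDR 0.951) and KLRB1 at day 45 (2.03, SE 0.699, FDR 1). The rise of GZMA in BRD cattle and the fall of CCL5 and NKG7 in healthy cattle are thus not shown to differ between the labels. The 95% interval of that difference at day 28, not adjusted for the number of genes, was 0.06 to 1.14 for GZMA, 0.13 to 1.15 for CCL5 and -0.33 to 0.57 for NCR1.

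BRD and healthy cattle were also compared on each day, with supplement as a covariate. None of the 10 genes passed at any day in edgeR or DESeq2, where 0.0422% of all genes passed at day 0, 0.248% at day 13, 0.0422% at day 28 and 0.00528% at days 45 and 60. Of the 50 gene and day combinations, 2 had an unadjusted p below 0.05 in edgeR, as did 626 to 1456 of all 18937 genes by day. GZMA at day 28 had a median of 71.9 CPM in BRD and 48.6 CPM in healthy cattle (log2 difference 0.49, SE 0.234, FDR 0.639). The 95% intervals at day 0 were -0.48 to 0.28 for PRF1, -0.53 to 0.29 for NKG7, -0.70 to 0.31 for NCR1 and -0.98 to 0.26 for CCL5.

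KLRB1 at day 0 was the other. Its BRD median of 1.27 CPM stood below the healthy median of 5.31, with ranges that overlapped from 1.002 to 7.21 CPM (log2 difference -1.62, SE 0.496, FDR 0.262). When only the 15 steers of the 4 pens that held both labels were compared, with pen as a covariate, the difference was -2.47 and passed (FDR 0.0285), in a fit in which 9.04% of all genes passed at day 0. In all, 4 healthy steers stood in pen 5 and 7 BRD steers in pens 6 and 7, where no comparison within the pen was possible. On days 13, 28, 45 and 60 the KLRB1 differences were -0.59, -0.54, 0.32 and -0.16, with FDRs of 0.782 to 1.

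In edgeR, XCL2 was the only one of the 10 genes called between supplements within a disease label, in healthy cattle at day 0. The 4 healthy COMBO steers had 3.76, 4.46, 5.14 and 3.96 CPM, the 4 AAC steers 1.90, 2.09, 1.89 and 1.93, and the 4 INR steers 1.92, 1.87, 1.84 and 1.15. No COMBO steer overlapped either other group, and AAC and INR overlapped. How many of all genes set COMBO apart in this way was not counted. AAC minus COMBO was -1.16 on the log2 scale (95% interval -1.73 to -0.60, FDR 0.0846), in a comparison in which 0.186% of genes passed, and COMBO minus INR was 1.35 (95% interval 0.78 to 1.93, FDR 0.0695), where 0.0274% passed. Both differences use the same COMBO libraries and are not separate evidence. At the day 0 bleeding COMBO steers had already had the drench given before shipment, and supplement and pen coincide there.

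On later days the healthy COMBO steers stood above the INR steers in XCL2. They had 1.74 to 3.49 CPM at day 13 against 0.813 to 1.48 in INR, 2.18 to 2.99 against 0.832 to 0.992 at day 28, 2.46 to 3.53 against 0.958 to 1.69 at day 45 and 2.55 to 4.74 against 1.05 to 1.81 at day 60, with no overlap on any day. The AAC steers did not overlap COMBO at day 28 (0.727 to 1.60 CPM) but did at days 13 (1.08 to 2.28), 45 (0.963 to 2.98) and 60 (1.66 to 4), and AAC minus COMBO was -0.82, -1.02, -0.47 and -0.46 on the 4 days (FDR 0.595, 0.491, 1 and 0.955). For COMBO minus INR, the log2 differences of 1.14, 1.43, 1.07 and 1.304 did not pass in edgeR (FDR 0.195, 0.176, 0.446 and 0.326), whereas DESeq2 called COMBO over INR on all 5 days (FDR 0.000953, 0.0427, 0.00115, 0.0757 and 0.00475 in order of day), in comparisons in which it called 0.520%, 0.350%, 0.12%, 0.213% and 0.137% of all genes. The same 4 animals a group were bled each time, so the days repeat the animals. How many of all genes separated these groups without overlap was not counted on any day. The 2 calls at day 0 lay near the threshold. COMBO minus INR was lost in 6 and AAC minus COMBO in 9 of the 12 fits that left out a healthy steer, although their log2 differences ran only from 1.21 to 1.42 and from -1.23 to -1.07. Both were lost without animals 6, 7, 10, 30 or 42, and neither passed when each day was fitted alone (FDR 0.171 and 0.487).

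In BRD cattle XCL2 did not separate by supplement. At day 0 the 3 COMBO steers had 2.16, 3.02 and 3.59 CPM, the 4 AAC steers 2.14 to 2.69 and the 7 INR steers 1.58 to 3.95, and COMBO minus INR was 0.29 (95% interval -0.42 to 1.01, FDR 0.792). The difference between the labels in COMBO minus INR was 1.06 at day 0 (SE 0.473) and did not pass (edgeR FDR 0.264), and for AAC minus COMBO it was -0.86 (FDR 0.266). A supplement difference in XCL2 that is confined to healthy cattle is therefore not shown.

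**Figure D3:**
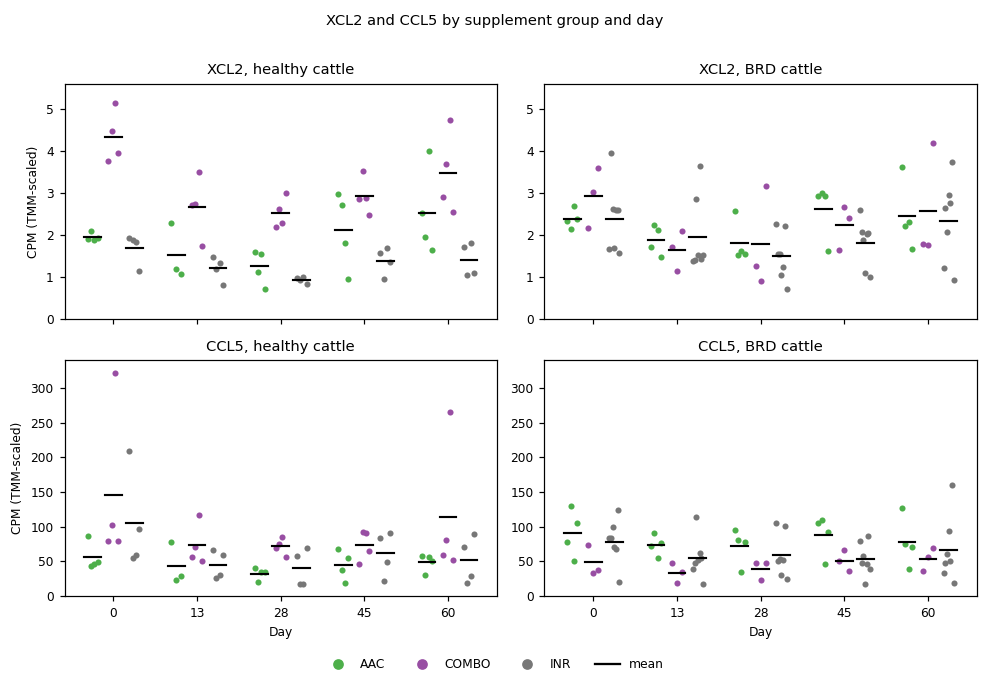
XCL2 and CCL5 in CPM by day and supplement, in healthy and BRD cattle, with a point for each library and a bar for the mean. Healthy COMBO steers lie above healthy INR steers for XCL2 on all 5 days, and the highest CCL5 values, 322 CPM at day 0 and 265 CPM at day 60, come from 1 healthy COMBO steer.

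Whether a supplement difference itself differed between the labels was also tested. At day 0, 2 of the 10 genes, CCL5 and NKG7, passed for AAC minus COMBO, a share near the 16.35% of all genes that passed in that comparison. CCL5 in healthy cattle stood at 86.1, 43.6, 46.3 and 48.4 CPM in AAC and at 78.7, 102.9, 322 and 79 in COMBO, while in BRD cattle it stood at 78.2, 130.4, 50.4 and 105.7 in AAC and at 74.1, 32.7 and 38.03 in COMBO. AAC was thus mostly the lower group in healthy and the higher in BRD cattle, with overlap in both. The healthy minus BRD difference of AAC minus COMBO was -2.29 (SE 0.783, edgeR FDR 0.0451) for CCL5 and -1.3 (SE 0.516, FDR 0.0880) for NKG7. Both calls were lost without animal 18, 42 or 54 (without animal 42, -1.57 and FDR 0.175 for CCL5, -0.84 and FDR 0.303 for NKG7), and NKG7 also without animal 21, 46, 48 or 49. Healthy and BRD COMBO steers stood in different pens, which cannot be told apart from the label here.

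Within BRD cattle none of the 10 genes passed between supplements in edgeR over 15 comparisons. Of the 150 gene and comparison combinations, 14 had an unadjusted p below 0.05. By comparison, 529 to 4238 of all 18477 genes had one. AAC minus COMBO called 12.89% of all genes at day 0 and 5.93% at day 13. The closest member was GZMK at day 13, which stood at 7.84, 4.12, 4.42 and 1.42 CPM in AAC and 1.12, 1.19 and 0.993 in COMBO (log2 difference 1.99, SE 0.725, FDR 0.116). NKG7 on that day stood at 52, 56.6, 44.7 and 37.7 CPM in AAC and 30.2, 16.97 and 23.7 in COMBO (0.99, SE 0.369, FDR 0.123). Neither pair of groups overlapped. The share of all genes that set these 4 AAC and 3 COMBO steers apart was not counted, so the separation is only a description of GZMK and NKG7. Both genes passed in DESeq2 (FDR 0.0556 and 0.0774, with 8.41% of genes called) and both in edgeR without the library of low RNA integrity (FDR 0.0827 and 0.0949, with 6.78% called), which is a day 60 INR library and so lies outside both groups compared. How it moved these calls was not tested.

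The steers differed more from each other than the days did. Differences between animals made up 65.5% of the variance of log2 CPM for CCL5, 64.6% for NCR1, 64.4% for NKG7, 60.8% for PRF1, 58.1% for GZMB, 57.5% for XCL2 and 54.9% for GZMK, against a median of 42.1% over all genes tested. GZMA (39.02%), KLRK1 (29.2%) and KLRB1 (28.4%) lay below that median. Differences between days made up at most 16.8% (XCL2), with 2.79% for KLRK1 and 5.66% for the median gene. Within a steer, the highest of its days exceeded the lowest by a median of 1.65-fold for PRF1 and NKG7, 1.82-fold for NCR1 and 6.83-fold for KLRB1.

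Animal 40 (BRD, INR) had the highest GZMB of all steers on each day, with 32.5, 42.6, 40.1, 53.6 and 69.7 CPM, where the median of all libraries was 10.7 CPM. Its GZMK was 1.14 and 1.57 CPM on days 0 and 13 and then 6.10, 6.12 and 10.05. The day 60 values, 69.7 and 10.05 CPM, come from the library of low RNA integrity, and on the other 4 days GZMB reached 53.6 and GZMK 6.12 CPM. Animal 42 (healthy, COMBO) had CCL5 of 322 and 265 CPM on days 0 and 60 and of 116.9, 84.5 and 90.5 between, and its NKG7 was 96.1, 43.38, 38.8, 35.6 and 82.8 CPM. Animal 41 (BRD, AAC) had the lowest GZMB at days 0, 13, 28 and 60, with 0.655, 1.76, 3.12 and 3.54 CPM.

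KLRK1 dropped to near 0 in single libraries. Animal 16 (BRD, COMBO) had 16, 32.4, 0.532, 35.18 and 0.374 CPM, which are 673, 1362, 28, 1807 and 16 counts. Animal 40 had 4.54, 11.4, 28.1 and 31.9 CPM and then a count of 0 at day 60, at least 432-fold lower than its highest day when the floor is 3 counts in that library. This is the library of low RNA integrity, and without it the KLRK1 of animal 40 ran from 4.54 to 31.9 CPM. Animal 23 had 0.276 CPM at day 13 and 9.27 to 30.4 on the other days, animal 6 had 0.978 at day 45 and at least 17.7 on the others, and animal 30 had 0.905 at day 60. Animal 50 had 0.128 at day 0 and stayed below the healthy median on the later days, with 7.66, 3.10, 9.11 and 5.23 CPM. In the day 60 library of animal 16, NKG7 (26.0 CPM), PRF1 (52.2), GZMA (47.8), GZMK (0.819) and CCL5 (36.4) were also at that steer's lowest, whereas GZMB (15.02) was at its highest. KLRB1 varied in another way, with 1 or 2 high libraries, in animal 29, with 5.97, 0.6998, 0.687, 1.03 and 22.8 CPM, and in animal 7, with 29.03, 10.1, 2.25, 1.55 and 1.91 CPM.

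**Figure D4:**
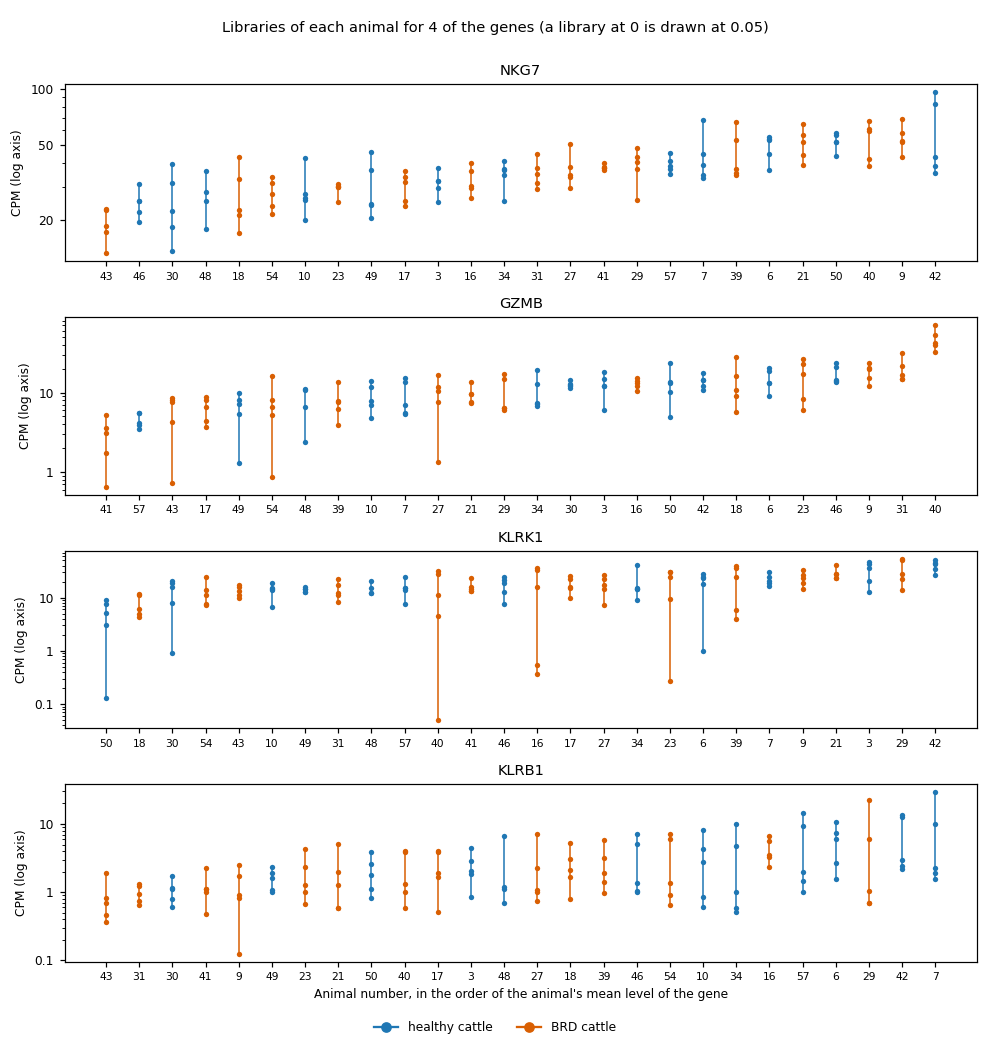
NKG7, GZMB, KLRK1 and KLRB1 in CPM (log axes) for each of the 26 steers, ordered by their mean, with a point for each day and colour by disease label. The points of a steer lie close together for NKG7, animal 40 stands highest for GZMB, and KLRK1 and KLRB1 spread within steers, with a median within-animal fold of 3.19 and 6.83.

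The 10 genes did not move as a block. Over all libraries, which include up to 5 from the same steer, Pearson's r of log2 CPM was 0.887 between PRF1 and NKG7, 0.855 between NKG7 and CCL5 and 0.815 between PRF1 and CCL5. Against the mean of the other 9 genes, r was 0.865 for NKG7, 0.791 for CCL5, 0.752 for PRF1, 0.561 for GZMA, 0.550 for NCR1 and 0.512 for XCL2, but 0.273 for GZMK, 0.231 for KLRB1, 0.210 for GZMB and 0.000121 for KLRK1. The genes outside the list most like the mean of the 10, over the same libraries, were SAMD3 (r 0.842), CCL4 (0.787), ATP6V0A4 (0.776), NUCB2 (0.770), B3GNT7 (0.763), OASL (0.755), ADGRG1 (0.752), CXCR6 (0.748), RILPL1 (0.746) and SH2D2A (0.745). CCL4 is a chemokine released by the same lymphocytes, and CXCR6 is a homing receptor of effector T and NK cells. These values describe shared variation among libraries and carry no test.

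A wider list of 91 genes of cytotoxic lymphocytes, of which 86 were in the table and tested, gave the context (GZMH, GNLY, KLRC2, KLRE1 and KLRH1 were not analysed here). In healthy cattle 7 rose and 10 fell at day 13, 8 rose and 23 fell at day 28, 7 rose and 6 fell at day 45, and 7 rose and 5 fell at day 60. In BRD cattle 7 rose and 8 fell, 8 rose and 13 fell, 10 rose and 7 fell, and 9 rose and 11 fell on the same days. The share that rose was 8.14%, 9.30%, 8.14% and 8.14% in healthy cattle, against 6.11%, 10.76%, 4.36% and 5.83% of all genes, and the share that fell was 11.63%, 26.74%, 6.98% and 5.81%, against 4.84%, 10.22%, 4.19% and 5.81%. In BRD cattle 8.14%, 9.30%, 11.63% and 10.47% rose, against 9.08%, 9.78%, 11.77% and 9.45% of all genes, and 9.30%, 15.12%, 8.14% and 12.79% fell, against 8.35%, 10.27%, 10.74% and 10.17%. Most of these shares lay near those over all genes, and the share that fell at day 28 in healthy cattle lay farthest above its own. This list too was drawn up with earlier results on these data known. The median log2 difference of the list was -0.10, -0.16, -0.06 and -0.02 in healthy and -0.02, -0.02, -0.05 and -0.04 in BRD cattle, where the median over all genes lay between -0.01 and 0.01. Of its 21 NK receptors, 2, 1, 1 and 1 rose and 4, 8, 3 and 1 fell in healthy cattle on the 4 later days, and 2, 2, 1 and 1 rose and 1, 2, 1 and 1 fell in BRD cattle. BRD and healthy cattle differed in 1 of the 86 at day 13 (NCAM1, at or under 3 counts in the median library) and in none on the other 4 days, and the change from day 0 differed between labels in none.

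By smallest p-value, the leading genes of that list included CXCR4, CX3CR1, SH2D1B and FCGR3A. CXCR4, a receptor that holds leukocytes in the marrow and tissues, fell in healthy cattle from a median of 134 CPM to 35.7 at day 28 (log2 difference -1.62, FDR 6.16e-08) and in BRD cattle from 110.6 to 45.44 (-1.29, FDR 1.46e-06). CX3CR1, a homing receptor of cytotoxic lymphocytes and monocytes, rose from 193 to 270 CPM in healthy (0.56, FDR 0.000400) and from 139 to 237 in BRD cattle (0.75, FDR 1.76e-07). SH2D1B (EAT-2), an adaptor of NK cell receptors, rose from 73.8 to 121.9 CPM (0.97, FDR 5.03e-06) and from 59.7 to 128.3 CPM (0.88, FDR 5.12e-06). FCGR3A (CD16), an Fc receptor of NK cells that monocytes also carry, rose by 0.76 (FDR 0.00384) and 0.56 (FDR 0.0197) at day 28. Each of these 4 genes passed on all 4 later days under both labels.

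Of the other genes, KLRF1, an activating NK receptor, fell in healthy cattle from 4.22 to 1.90 CPM at day 28 (log2 difference -1.03, FDR 1.94e-05), and went from 2.198 to 1.83 CPM in BRD cattle (-0.39, FDR 0.109). IL18RAP, a subunit of the IL-18 receptor, fell from 16.38 to 10.7 CPM in healthy (-0.83, FDR 0.00244) and from 18.5 to 12 CPM in BRD cattle (-0.72, FDR 0.00349). IL12B, a subunit of the NK-activating cytokine IL-12, fell under both labels (-1.15 and -0.80 at day 28). CCL3, a chemokine of monocytes and NK cells, rose at day 28 from 2.41 to 3.39 CPM in healthy (0.58, FDR 0.0190) and from 1.55 to 3.19 CPM in BRD cattle (1.08, FDR 8.17e-07). FYN, a kinase of lymphocyte receptors, rose by 0.20 in healthy (FDR 0.0371) and 0.26 in BRD cattle (FDR 0.00206) on that day. KLRJ1, a lectin-like NK receptor, fell under both labels (-2.52 and -2.54 at day 28), but at medians of 0.653 and 0.694 CPM at day 0 and 7 and 7.5 counts in the median library.

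Markers of other blood cells moved over the same days. The label whole blood was checked against 8 marker lists, and the following leading markers were present in the median library: TCF7 (alpha-beta T cells), BLK (gamma-delta T cells), MS4A1 (B cells), LYZ (monocytes), TUBB1 (platelets), HBA1 (red cells) and SIGLEC8 (eosinophils and basophils). WC1-8, CAMP and CA1 stood at or under 3 counts in the median library. BLK is also transcribed in other leukocytes, so these lists are not exclusive. The summed red cell markers rose in healthy cattle from a median of 199.7 CPM at day 0 to 3859, 2799, 2661 and 2263 and in BRD cattle from 254 to 7286, 1709, 6363 and 1941, with single libraries up to 84800 CPM.

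The counts below stand beside 4.36% to 11.77% of all genes called as higher and 4.19% to 10.74% called as lower on any later day and label. Of 9 red cell genes tested, 6, 6, 6 and 5 rose in healthy and 8, 6, 9 and 5 in BRD cattle on days 13, 28, 45 and 60, and none fell. Of 8 platelet genes, 4, 5, 1 and 3 rose in healthy and 7, 4, 2 and 5 in BRD cattle, and the sum went from 937 to 1975 CPM in healthy and from 996 to 1873 CPM in BRD cattle at day 28. Of 10 monocyte genes, 6 fell on each day in healthy and 7, 7, 6 and 9 in BRD cattle, and the sum fell from a median of 3319 to 2430 CPM in healthy and from 3590 to 2472 in BRD cattle at day 28. Of 9 neutrophil genes, 1, 5, 0 and 3 fell in healthy and 5, 6, 4 and 6 in BRD cattle.

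Most alpha-beta T cell markers did not pass. Of 16 alpha-beta T cell genes, 1, 3, 1 and 1 fell in healthy cattle and none rose, while in BRD cattle 2 rose at day 13, 1 rose and 1 fell at day 28, and 1 fell at days 45 and 60. Their sum was 2674 CPM at day 0 and 2297 at day 28 in healthy and 2565 and 2707 in BRD cattle. Of 7 gamma-delta T cell genes, 0, 2, 2 and 0 fell in healthy and 0, 0, 4 and 1 in BRD cattle, and none rose. Of 10 B cell genes, 0, 2, 3 and 3 rose in healthy and 1, 2, 4 and 4 in BRD cattle. Of 8 eosinophil and basophil genes, 1 rose and 1 fell at day 13 and 1 fell at day 28 in healthy cattle, and 5, 1, 5 and 5 rose and 1, 1, 0 and 0 fell in BRD cattle. From day 0 to day 28, the healthy and BRD sums went from 281.5 to 301.7 and from 360.6 to 382.3 CPM for gamma-delta T cells, from 2292 to 2544 and from 2339 to 2779 for B cells, and from 544.9 to 506.1 and from 442.8 to 407.5 for eosinophils and basophils. No gene of these 8 lists passed between BRD and healthy cattle on any day. Before the TMM scaling, CPM are shares of a library, and the red cell and platelet transcripts take up part of each later library. The part of these transcripts, after the scaling, in the changes of the 10 genes from day 0 was not tested.

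**Figure D5:**
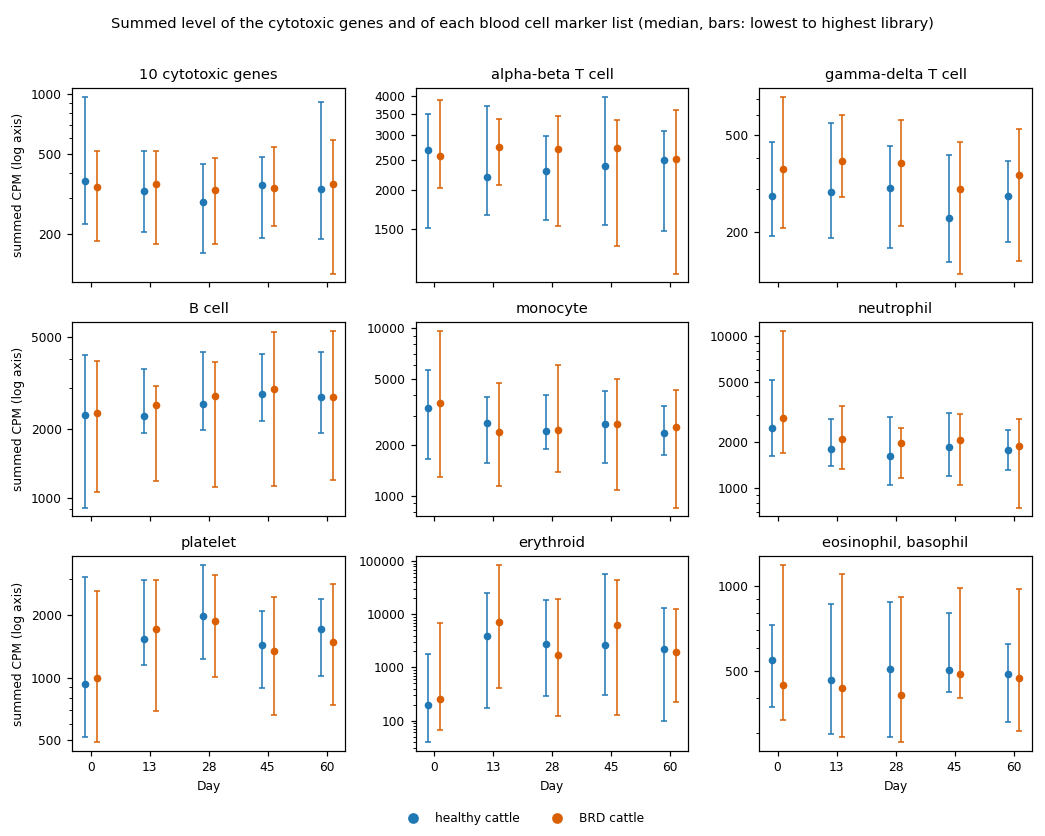
Summed CPM of the 10 genes and of 8 marker lists by day in healthy (blue) and BRD cattle (orange), with the median as the point and the lowest and highest library as the line. The 10 genes sum to a healthy median of 367 CPM at day 0 and 287 at day 28 and a BRD median of 344 and 329, while the red cell markers go from 199.7 to 2799 CPM in healthy and from 254 to 1709 CPM in BRD cattle between those days.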

How the data were processed

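Per the submitters' processing notes and the methods, the authors used Trimmomatic (0.39) for trimming, HISAT2 for alignment to ARS-UCD1.3, StringTie (2.2.0) for transcripts and prepDE for counts. The deposited table holds raw counts of 32395 genes in 59 healthy and 70 BRD libraries, which were made with a stranded mRNA kit. Whether counting used strand is not given in the sources used here. Coverage-derived counts are not direct read tallies, and they depend on how near-identical genes were split.

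Genes were filtered with filterByExpr (18937 genes over all libraries, 18269 in healthy and 18477 in BRD libraries). Fits used R 4.3.3 and edgeR 4.0.16 (TMM, common dispersion, quasi-likelihood F-tests, Benjamini-Hochberg adjustment over all genes per comparison and day, FDR below 0.10). Changes from day 0 had animal as a replicate block, because each steer was bled on every day. As a check of the pairing, deviations from group means correlated with a median r of 0.371 within a steer and of -0.0101 across steers. The biological coefficient of variation was 28.4% in that fit, 36.8% among healthy and 40.2% among BRD libraries, and these comparisons of supplements treat libraries of a steer as independent. The edgeR fits of BRD against healthy cattle and of supplement differences between labels do so as well. DESeq2 1.42.0, limma 3.58.1 (voom), RLE factors, a trended dispersion, other filters (26992 or 15160 genes), each day alone, pens and left-out steers were alternatives. Supplement differences between labels, and left-out steers for changes from day 0 within each label, were added after seeing the data. The methods were tested on simulated counts drawn without differences between steers, so that test does not cover repeated libraries of a steer.

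The 10 genes and all gene lists were chosen with earlier results on these data known. All 10 are named. Of the wider list, genes called on at least 2 days were named, at most 8 per comparison by smallest p, and the 10 genes most like the mean of the 10 were named by Pearson's r of log2 CPM (prior count 2). For marker lists, the calls, the sum (for neutrophils only as a plot) and the most abundant gene are given, except for 1 gene that is not reported here. Counts at or under 3 were treated as the floor, which covers counting error only.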

Additional observations from a re-analysis of the deposited data

Results flagged for a closer look

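Each of the genes was put to Dixon's test in groups of 4 to 7 steers of the same label, supplement and day. Of 240 gene and group combinations, 30 had a library far from the others. Chance flags about 1 combination in 20 if values are normally distributed. The test used CPM that were not log-transformed, and their distribution was not checked, so an excess of flags is not shown. The combinations share libraries between genes and steers between days, so they are not independent. No explanation of the flagged libraries was tested.

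Among the granzymes, GZMA had high libraries at day 0 in AAC BRD (54.9 CPM, next 37.2, animal 21), COMBO healthy (148, next 58.7, animal 42) and INR BRD cattle (123.5, next 62.99, animal 39), and at day 28 in INR BRD cattle (173, next 88.4, animal 29). GZMA was low at day 13 in 1 AAC BRD steer (45.6, next 98.39, animal 41). GZMB was high in AAC healthy cattle at day 28 (14.1, next 7.44, animal 46) and low in COMBO healthy cattle at day 13 (3.44, next 13.0, animal 57). Animal 40 among INR BRD cattle was high for GZMB at days 45 (53.6, next 17.3) and 60 (69.7, next 10.4) and for GZMK at days 28 (6.10, next 3.18), 45 (6.12, next 2.36) and 60 (10.05, next 3.21). GZMK was high at day 0 in animal 39 (3.80, next 1.65).

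Among receptors and NKG7, NKG7 was high at day 0 in COMBO healthy animal 42 (96.1, next 41.35). NCR1 was high at day 0 in AAC BRD animal 21 (103.1, next 61.1) and low at day 13 in COMBO healthy animal 3 (27.5, next 82). KLRK1 was low at day 0 in INR healthy animal 50 (0.128, next 18.8) and at day 28 in AAC BRD animal 9 (14.5, next 22.7), and high at day 28 in INR BRD animal 29 (53.1, next 28.1). KLRB1 was high in AAC BRD animal 21 at day 13 (5.16, next 0.741), AAC healthy animal 34 at day 0 (10.1, next 1.18), AAC healthy animal 46 at day 28 (7.08, next 1.01), INR BRD animal 17 at day 28 (3.99, next 1.32) and INR BRD animal 29 at day 60 (22.8, next 3.87).

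Among the chemokines, CCL5 was high at day 0 in AAC healthy animal 34 (86.1, next 48.4) and in COMBO healthy animal 42 at days 0 (322, next 102.9) and 60 (265, next 81.2). XCL2 was high at day 28 in AAC BRD animal 9 (2.56, next 1.61), and low at day 45 in AAC BRD animal 41 (1.63, next 2.92) and at day 0 in INR healthy animal 50 (1.15, next 1.84). The difference AAC minus COMBO at day 0 differed between healthy and BRD cattle for CCL5 (log2 difference -2.29) and NKG7 (-1.3), by a test of the difference itself in edgeR, in which 16.35% of all genes passed.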

How the results depend on the processing

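No result changed direction where it had been called. For supplement pairs in healthy cattle, the 2 calls of the 10 genes became 0 at an FDR of 0.05 or with each day fitted alone. They became 1 with no filter on low counts, 6 with DESeq2 and 0 to 3 with a steer left out. The 2 calls stood at day 0, where fits with a healthy steer left out called 0% to 1.35% of all genes for AAC minus COMBO. For COMBO minus INR they called 0% to 0.741%. For supplement pairs in BRD cattle, the count of 0 became 2 with DESeq2 or without the library of low RNA integrity. It became 1 with voom (NKG7), 1 with each day alone (KLRB1) and 0 to 2 with a steer left out. For AAC minus COMBO, voom called 12.49% of all genes at day 0 and 5.22% at day 13. Fits with a BRD steer left out called 1.46% to 19.09% and 1.05% to 9.74% there. For BRD against healthy cattle, the count of 0 became 1 in the 4 pens that held both labels and stayed at 0 with any steer left out. For the change from day 0, dropping the replicate block on animal gave 5 calls in place of 14 in healthy and 4 in place of 14 in BRD cattle, while the share of all genes called fell to between 2.15% and 7.67% per day in healthy and between 7.74% and 11.10% in BRD cattle. With a steer left out, fits of each label alone gave 14 to 18 calls in healthy and 4 to 12 in BRD cattle. In the healthy fits 8.39% to 22.75% of all genes passed at day 13 and 21.8% to 28.92% at day 28. At days 45 and 60 it was 8.01% to 13.84% and 11.98% to 20.01%. In the BRD fits the share ran from 10.72% to 16.41%, 14.47% to 20.56%, 15.7% to 21.63% and 13.46% to 22.28% on these 4 days. The difference between labels in the change from day 0 stayed at 0 in every alternative run, and leaving out steers was not run for it. For the supplement differences between labels, the 2 calls became 1 at an FDR of 0.05, 4 with DESeq2 or voom, and 0 to 3 with a steer left out. The added calls were AAC minus COMBO at day 28 or 13, where DESeq2 called 4.03% of all genes at day 28 and voom 4.35% at day 28 and 1.80% at day 13. At day 0 DESeq2 called 18.55% and voom 17.06% of all genes, and fits with a steer left out called 6.27% to 22.34%. KLRJ1, GZMK and KLRB1 had 7 to 72 counts in the median library, and how far this depth limits their calls was not tested. The causes of these changes were not tested.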
